A study of Mus musculus with 10 samples.

Results

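Drug- and toxin-metabolising enzymes were followed in mouse kidneys whose ureter had been obstructed for 10 days. The genes were chosen by name and by level. By name they were protein-coding genes of the cytochrome P450 families Cyp1 to Cyp4, the UDP-glucuronosyltransferases Ugt1 to Ugt3 and the sulfotransferases (Sult). Glutathione S-transferases were those of the alpha, kappa, mu, pi and theta classes (Gsta, Gstk, Gstm, Gstp, Gstt), without other classes such as Gsto and Gstz. By level, their mean over the 10 libraries was 1 FPKM or more. FPKM counts reads relative to gene length and to a total set for each library, so levels of different genes can be set side by side. Of 142 protein-coding genes with such names, 54 reached that mean, among 13435 genes that did so and 54532 in the table. The level over all libraries chose the members and is given as a description. The rule did not use the difference between the genotypes. Cyp2r1 and Gsta1, however, reached the mean only through the knockout libraries, so their direction was favoured by the choice.

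The libraries came from 5 wild-type kidneys and 5 kidneys labelled as Padi4 knockout, all after unilateral ureteral obstruction (UUO), which ties off the ureter of one kidney so that it loses tubules, becomes inflamed and scars. Padi4 encodes a peptidylarginine deiminase, which makes citrulline out of arginine residues of histones. The sources used here do not give strain, age, sex or the kind of Padi4 allele, nor whether each library is a separate animal, so p-values measure the spread between these libraries. Levels in an unobstructed kidney are not analysed here. The Padi4 gene itself had 6, 26, 27, 33 and 47 reads in wild-type libraries 1 to 5 and 17, 12, 43, 9 and 20 reads in knockout libraries 1 to 5. These counts overlap, knockout 3 lies above 4 of the wild-type libraries, and the deleted part of the gene is not known here, so Padi4 reads do not check the labels. Wild-type and knockout are therefore names from the labels throughout.

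Detoxification runs in 2 phases. In phase I, cytochrome P450 enzymes of the endoplasmic reticulum insert oxygen into a drug, steroid or fatty acid, with electrons from the reductase Por. In phase II, a polar group is attached: glucuronic acid by Ugt enzymes, glutathione by Gst enzymes and sulfate by Sult enzymes, and the product leaves in urine or bile. In the kidney most of this takes place in the proximal tubule, a segment that atrophies under obstruction, and several members also act on signalling lipids, as the arachidonic acid epoxygenases of Cyp2 and the fatty acid omega-hydroxylases of Cyp4 do.

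The libraries held 15002922 to 16886945 reads, recovered from the FPKM values. The library totals implied by those values were not the recovered reads. The implied total was 13557357 in wild-type 1, which held 15390728 reads, and 15421954 to 16682649 in the other libraries. A read therefore gave a higher FPKM in wild-type 1 than elsewhere. Wild-type 1 stood apart. The 26 measured proximal tubule markers, a list that leaves out Cyp genes and the conjugating families, had a summed level of 20450.0, 4284, 4834, 5912 and 11340.0 FPKM in wild-type libraries 1 to 5 and of 7708, 6319, 8008, 6535 and 8473 FPKM in knockout libraries 1 to 5. The androgen-regulated gene Kap made up most of this sum. Without it, the level was 4800 FPKM in wild-type 1, 1327 to 2198 FPKM in the other wild-type libraries and 1703 to 2730 FPKM in the knockout libraries, so wild-type 1 remained the highest while wild-type 5 lay among the knockout libraries. In a bulk sample, fewer tubule cells and less RNA per cell cannot be told apart. All 10 kidneys carried the Y-linked transcript Ddx3y, at 10.51 to 18.6 FPKM, and Xist of the inactive X chromosome was at or below 0.0164 FPKM. Several members are known to differ between male and female mice.

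Among the 54 genes, 8 had a mean of at least 100 FPKM, 22 lay between 10 and 100 FPKM and 24 below 10 FPKM. Their summed level was 4235, 1460.0, 1890.0, 2056 and 2666 FPKM in wild-type libraries 1 to 5, and 2709, 2517, 2586, 2192 and 2506 FPKM in knockout libraries 1 to 5. The wild-type kidneys included both the highest and the lowest library, and all 5 knockout kidneys fell between them. As a share of this sum over all libraries, Cyp2 took 30.8%, Cyp4 17.3%, Gstm 13.6%, Ugt2 8.72%, Sult 7.40%, Ugt3 6.01%, Gsta 5.40%, Gstp 4.60%, Gstt 3.02%, Cyp1 1.62%, Ugt1 0.973% and Gstk 0.504%. The Cyp3 family, which dominates drug oxidation in liver, had no member: its most abundant gene, Cyp3a13, had a mean of 0.832 FPKM, and 6 of the 9 Cyp3a genes had no read in any library.

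**Figure D1:**
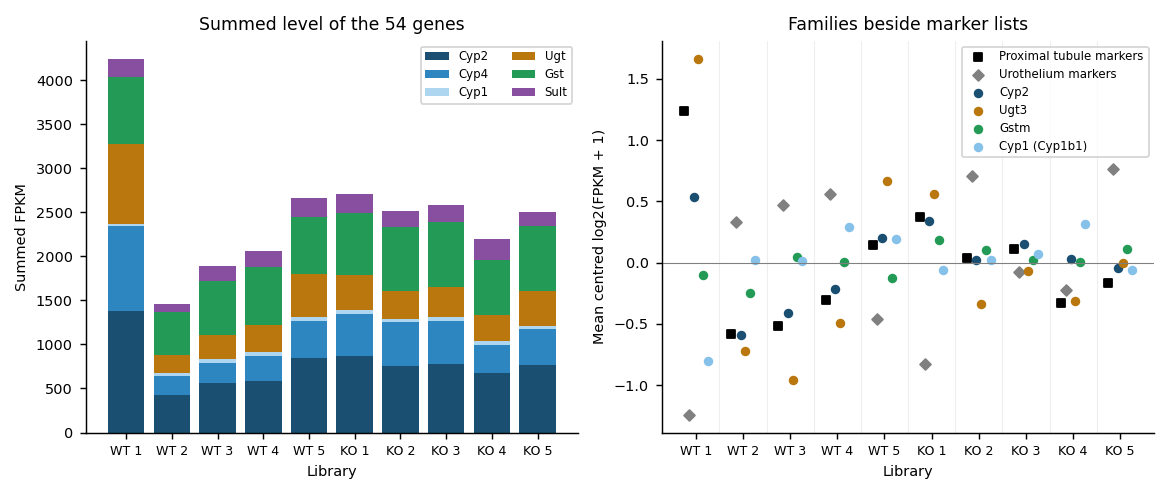
Left, FPKM summed over the members of each family, as stacked bars for each of the 10 libraries. Right, the mean over genes of log2(FPKM + 1) minus the gene's mean over all libraries, for 2 marker lists and 4 families, with points offset sideways for legibility; wild-type 1 is at 1.24 for proximal tubule markers and 1.67 for Ugt3, and at -0.80 for Cyp1b1.

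None of the 54 genes passed the genotype comparison. Limma on log2(FPKM + 1) over 13435 genes called 0 members at a Benjamini-Hochberg adjusted p of 0.05, and 0% of all genes, and the smallest adjusted p of a member was 0.976. The mean of log2(FPKM + 1) was higher in knockout kidneys for 46 members and lower for 8, and counts of higher and lower genes are given on this scale throughout. By mean FPKM, on which a single high library weighs more, it was 40 higher and 14 lower: the direction turned for Cyp2j5, Cyp2j11, Cyp4b1, Cyp4a12a, Ugt2b5 and Ugt3a2, all with lower mean FPKM in knockout kidneys. The median difference in log2(FPKM + 1), knockout minus wild type, was 0.14 over the members, where over all genes tested 51.6% were higher and the median was 0.0051. The members vary together from library to library and are not independent of each other. At an unadjusted p of 0.05, 4 members were reached, against 4.05% of all genes, and all 4 had higher values in knockout kidneys, against 2.05% of all genes. For no member were the groups apart, as they were for 0.744% of all genes. With limma-voom, fitted to recovered reads, 0 members passed and 6 were at an unadjusted p under 0.05. The share of all genes at that p was not worked out for limma-voom, so its count cannot be set against all genes.

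These counts depended on 2 wild-type libraries. Wild-type 1 was the highest of all libraries for 23 of the 54 members, and for 19.8% of all genes tested. Wild-type 2 was the lowest for 26 members, and for 18.4% of all genes. Without wild-type 1, 44 members had higher values in knockout kidneys, with a median of 0.25. The unadjusted p was then under 0.05 for 15 members, against 6.82% of all genes, and for 14 of these with higher values in knockout kidneys, against 3.49%. None passed after adjustment, and the smallest adjusted p was 0.504, for Gsta3. Without wild-type 2 the median was 0.067, and 33 members had higher values. The share of all genes with higher values was not worked out for the fit without wild-type 2. Below, single genes and lists are given with and without wild-type 1, whose removal raised the median of the members. The fit without wild-type 2, which lowered that median, is not set beside them.

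**Figure D2:**
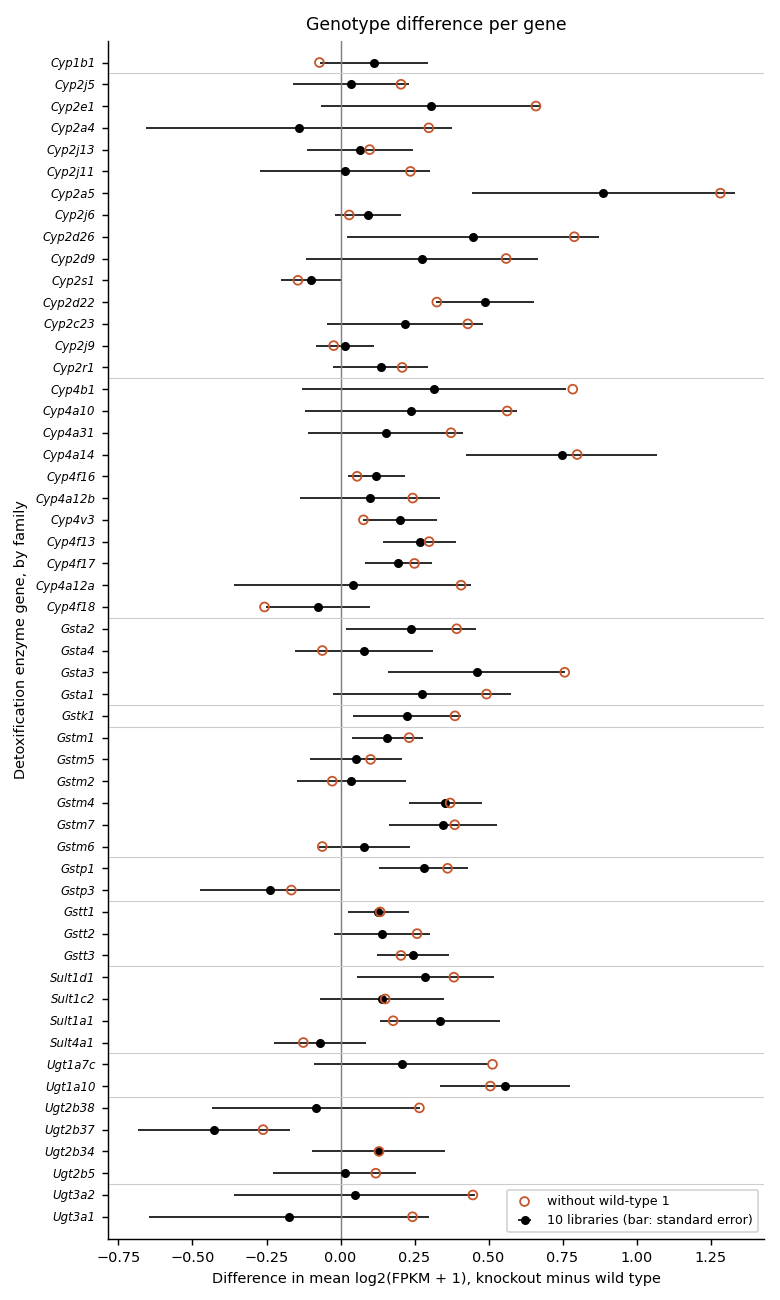
Difference in mean log2(FPKM + 1), knockout minus wild type, for each of the 54 genes, ordered by family and by level. Filled points use all 10 libraries, with bars of 1 standard error; open points leave out wild-type 1. Of the filled points 46 lie above 0, and the median moves from 0.14 to 0.25 without wild-type 1.

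Cyp1b1 was the sole Cyp1 gene in the set. It oxidises polycyclic hydrocarbons and oestradiol outside the liver and is induced through the aryl hydrocarbon receptor. The gene lies on chromosome 17 from 79706953 to 79715041, in coordinates of the deposited table that match GRCm38. It measured 22.2, 40.0, 39.8, 48.4 and 45.3 FPKM in wild-type libraries 1 to 5 and 37.7, 40.2, 41.5, 49.3 and 37.8 FPKM in knockout libraries 1 to 5. Wild-type 1 had the lowest level and the other 9 kidneys lay between 37.7 and 49.3 FPKM, with the genotypes mixed. The difference was 0.11 (SE 0.182, limma adjusted p = 0.976), and -0.07 without wild-type 1. Its relatives Cyp1a1 and Cyp1a2 lay below the mean of 1 FPKM, with Cyp1a1 at 0.472 FPKM. The letters of the dioxin response core, to which the aryl hydrocarbon receptor binds (GCGTG, or CACGC on the other strand), begin 76 bases before the start of Cyp1b1. The stretch is shown because it carries that core, in capitals, in the sole Cyp1 gene of the set (RefSeq, GRCm38.p6, chr17:79715092-79715181, minus strand):
Cyp1b1: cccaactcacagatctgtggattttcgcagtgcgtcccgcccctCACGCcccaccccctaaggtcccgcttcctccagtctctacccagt
Promoter windows ran from 250 bases before to 50 after each start, and 42 of the 54 members had one. Of 32851 such windows of 300 bases, 32.4% hold the same 5 letters, as do 15 of the 49 windows of members. The match is a description, and binding was not measured.

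Cyp2 was the largest family, with 14 of 49 genes in the set, and 12 of these had a higher mean log2(FPKM + 1) in knockout kidneys, with a median difference of 0.11, and 10 a higher mean FPKM. Cyp2j5, which turns arachidonic acid into epoxides in the mouse proximal tubule, was the most abundant member of all at a mean of 320.5 FPKM. It lies on chromosome 4 from 96628773 to 96664154 and measured 495, 205, 287, 277 and 353 FPKM in wild-type libraries 1 to 5 and 333, 329.7, 315, 308 and 303 FPKM in knockout libraries 1 to 5. The knockout kidneys were close together, and the wild-type kidneys lay on both sides of them. The difference in mean log2(FPKM + 1) was 0.04 (SE 0.195, limma adjusted p = 0.996). Cyp2e1, which oxidises ethanol and small solvents, came second in the family at 239.9 ± 176 FPKM over the wild-type libraries and 250.3 ± 43.0 FPKM over the knockout libraries (SD, n = 5 each), the wild-type kidneys running from 103.6 to 535.1 FPKM. Of the other Cyp2j genes, all in the same cluster on chromosome 4, Cyp2j13 had a mean of 34.9, Cyp2j11 of 34.8, Cyp2j6 of 16.3 and Cyp2j9 of 2.55 FPKM. Their differences were 0.07, 0.02, 0.09 and 0.01.

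A pair of genes on chromosome 7 was among the 5 widest in range of the members with a mean of at least 10 FPKM. Cyp2a4 hydroxylates testosterone, and Cyp2a5 hydroxylates coumarin and nicotine. Cyp2a4 measured 135, 23.8, 16.9, 27.8 and 60.1 FPKM in wild-type libraries 1 to 5 and 54.04, 19.3, 33.3, 24.7 and 65.5 FPKM in knockout libraries 1 to 5. The highest library was 7.98 times the lowest, and the genotypes overlapped throughout, with a difference of -0.14 that turned to 0.30 without wild-type 1. Cyp2a5 measured 44.7, 6.203, 6.62, 12.9 and 22.5 FPKM in wild-type libraries 1 to 5 and 33.9, 26.9, 26.6, 17.9 and 34.0 FPKM in knockout libraries 1 to 5. Its wild-type kidneys held both the highest library and the 3 lowest, while the knockout kidneys stayed between 17.95 and 34.03 FPKM. The difference of 0.89 was the largest of all members (SE 0.444, unadjusted p = 0.0698, limma adjusted p = 0.976), and it was 1.28 without wild-type 1. These genes share 38.0% of the 50-base words of Cyp2a4 transcripts and 37.0% of those of Cyp2a5 with other genes, mostly each other, so reads may have been split between them.

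Cyp2d22 had the smallest p of the members. It is a Cyp2d gene on chromosome 15 from 82370527 to 82380260. It measured 3.45, 5.78, 7.32, 8.33 and 6.06 FPKM in wild-type libraries 1 to 5 and 9.09, 8.33, 9.78, 8.68 and 8.11 FPKM in knockout libraries 1 to 5. All knockout kidneys were at or above 8.11 FPKM, and wild-type 4, at 8.33 FPKM, was the wild-type kidney that overlapped them. The difference was 0.49 (SE 0.166, unadjusted p = 0.013, limma adjusted p = 0.976), and 0.33 without wild-type 1, which had the lowest value. The neighbouring genes Cyp2d26 and Cyp2d9 had the same direction, at 0.45 and 0.27, and 0.79 and 0.56 without wild-type 1. Their highest to lowest ratios were wider, at 5.61 and 4.89 against 2.83 for Cyp2d22. Cyp2d26 measured 8.41 ± 6.66 FPKM over the wild-type libraries and 10.8 ± 5.39 FPKM over the knockout libraries (SD, n = 5 each). Cyp2d9 measured 8.53 ± 5.75 FPKM over the wild-type libraries and 10.0 ± 5.79 FPKM over the knockout libraries (SD, n = 5 each). Wild-type 1 and knockout 1 were the highest libraries of both. The rest of the family comprised Cyp2s1 of surface epithelia (-0.10), the epoxygenase gene Cyp2c23 (0.22) and Cyp2r1, which adds the 25-hydroxyl group to vitamin D (0.14), with means of 8.15, 5.90 and 1.02 FPKM.

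Cyp4 enzymes hydroxylate the far end of fatty acids and of eicosanoids, and 11 of 20 genes were in the set. Of these 10 had a higher mean log2(FPKM + 1) in knockout kidneys, with a median difference of 0.20, and 8 a higher mean FPKM. Cyp4b1, which acts on short fatty acids and on foreign compounds, lies on chromosome 4 from 115624725 to 115647723 and was the most abundant. It measured 689.9, 101, 104, 144 and 216 FPKM in wild-type libraries 1 to 5 and 244, 255, 265, 159 and 259 FPKM in knockout libraries 1 to 5. Wild-type 1 was far above knockout 3, the next library at 265.0 FPKM, while wild-type 2 and 3 were the lowest. The group means were 251.1 ± 249.7 FPKM over the wild-type libraries and 236 ± 44.1 FPKM over the knockout libraries (SD, n = 5 each), lower in knockout kidneys. On the log2(FPKM + 1) scale, where wild-type 1 weighs less, the direction was the opposite, with a difference of 0.31 (SE 0.445, limma adjusted p = 0.976). Without wild-type 1 it was 0.78 (unadjusted p = 0.00587, limma adjusted p = 0.680).

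Cyp4a14 was the Cyp4a gene for which wild-type 1 was not the highest library. Cyp4a10 and Cyp4a14 are classic targets of the fatty acid sensor PPAR alpha. Cyp4a14, on chromosome 4 from 115486200 to 115496142, measured 30.8, 22.1, 26.4, 24.3 and 30.2 FPKM in wild-type libraries 1 to 5 and 54.7, 86.9, 63.2, 31.4 and 19.9 FPKM in knockout libraries 1 to 5. Knockout 1, 2 and 3 were far above every wild-type kidney, knockout 4 was just above the wild-type range and knockout 5 was the lowest of all libraries. The difference was 0.75 (SE 0.322, unadjusted p = 0.0396, limma adjusted p = 0.976), and 0.80 without wild-type 1. Wild-type 1, the top library of Cyp4a10, Cyp4a31, Cyp4a12a and Cyp4a12b, was here the highest wild-type library but below knockout 1 to 4. The split of the knockout kidneys was shared by Cyp4a10, at 69.5, 58.6, 63.1, 41.4 and 39.4 FPKM in knockout libraries 1 to 5. Knockout 5 was also the lowest knockout library of Cyp4a31, but not of Cyp4a12a or Cyp4a12b. Cyp4a10 measured 52.7 ± 36.3 FPKM over the wild-type libraries and 54.4 ± 13.4 FPKM over the knockout libraries (SD, n = 5 each), and Cyp4a31 44.7 ± 20.8 FPKM over the wild-type libraries and 46.4 ± 8.08 FPKM over the knockout libraries (SD, n = 5 each). Cyp4a12a, which makes 20-HETE in the kidney of male mice, had a mean of 5.62 FPKM and its copy Cyp4a12b 8.02 FPKM. Since 48.9% of the words of Cyp4a12a and 49.4% of those of Cyp4a12b occur in the other gene, their separate values are uncertain. The gene of the sensor, Ppara, measured 7.995 ± 2.79 FPKM over the wild-type libraries and 5.95 ± 1.26 FPKM over the knockout libraries (SD, n = 5 each).

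The Cyp4f and Cyp4v genes were lower and steadier, with 1.43 to 2.51 between the highest and lowest library as a ratio. Cyp4f13 measured 7.51, 4.64, 6.84, 7.98 and 7.41 FPKM in wild-type libraries 1 to 5 and 8.54, 9.34, 7.71, 7.69 and 8.61 FPKM in knockout libraries 1 to 5. The knockout kidneys lay at the upper end of the wild-type range or above it, with wild-type 2 the lowest, and the difference was 0.27 (SE 0.123, unadjusted p = 0.0509, limma adjusted p = 0.976). Cyp4f17, Cyp4f16 and Cyp4v3 differed by 0.20, 0.12 and 0.20, at means of 6.28, 8.41 and 7.64 FPKM. Cyp4f18, which inactivates leukotriene B4 in mouse leukocytes, was the Cyp4 gene with lower values in knockout kidneys, at -0.08. Without wild-type 1 the Cyp4f18 difference was -0.26 (unadjusted p = 0.0238, limma adjusted p = 0.727). Beside it, the 11 measured leukocyte markers had a median difference of -0.32, with 8 of 11 lower in knockout kidneys. Of the 11, 5 were at an unadjusted p under 0.05, all lower, against 4.05% of all genes in either direction. The part of leukocyte markers in the Cyp4f18 value was not tested.

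**Figure D3:**
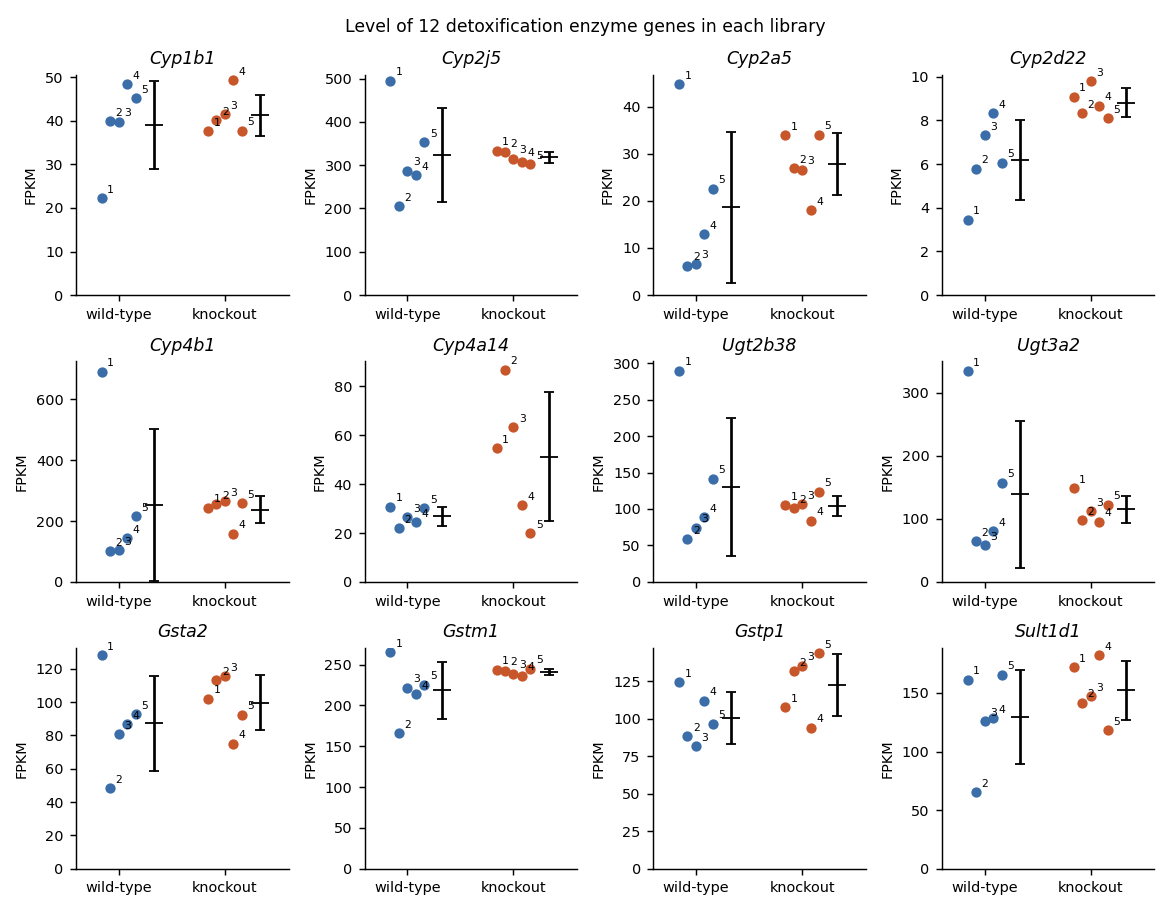
FPKM of 12 members in each library, with wild-type kidneys in blue and knockout kidneys in orange; digits are replicate numbers, and the black bar is the mean ± 1 SD of 5 libraries. Wild-type 1 is the highest library for Cyp2j5, Cyp2a5, Cyp4b1, Ugt2b38, Ugt3a2, Gsta2 and Gstm1 and the lowest for Cyp1b1 and Cyp2d22, and Cyp4a14 is high in knockout 1, 2 and 3.

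The glucuronosyltransferases had 5 higher and 3 lower of 8 by mean log2(FPKM + 1), with a median difference of 0.03, and 3 higher and 5 lower by mean FPKM, so their direction depended on the scale. Ugt1a genes are read from one locus that joins alternative first exons to a common set of later exons. Ugt1a7c measured 47.1, 12.4, 14.2, 14.5 and 23.1 FPKM in wild-type libraries 1 to 5 and 25.99, 22.7, 20.6, 19.7 and 25.1 FPKM in knockout libraries 1 to 5. Wild-type 1 was the highest, wild-type 2, 3 and 4 were the lowest, and the knockout kidneys lay between 19.7 and 25.99 FPKM. The difference was 0.21 (SE 0.295, limma adjusted p = 0.976), and 0.51 without wild-type 1 (unadjusted p = 0.00829, limma adjusted p = 0.708). Ugt1a10 was low, at 16 to 116 reads per library. It measured 0.781, 0.899, 1.30, 0.438 and 2.17 FPKM in wild-type libraries 1 to 5 and 3.22, 1.86, 2.44, 1.23 and 1.62 FPKM in knockout libraries 1 to 5. Here wild-type 1 was not high, and 4 knockout kidneys were above wild-type 1 to 4, with wild-type 5 among the knockout values, and with a difference of 0.56 (SE 0.221, unadjusted p = 0.0276, limma adjusted p = 0.976). Since 63.0% of its words and 53.7% of those of Ugt1a7c occur in other genes, how the common exons were counted bears on both values, and the other 7 Ugt1a genes all stayed below the mean of 1 FPKM.

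Ugt2b enzymes conjugate steroids and bile acids. Ugt2b38, on chromosome 5 from 87409942 to 87424203, measured 289.8, 58.5, 74.3, 88.4 and 142 FPKM in wild-type libraries 1 to 5 and 106, 101, 107, 84.2 and 124 FPKM in knockout libraries 1 to 5. Wild-type 1 exceeded all other kidneys and wild-type 2 was the lowest, with the knockout kidneys in the middle. The difference was -0.08 (SE 0.352, limma adjusted p = 0.993), and 0.27 without wild-type 1. Ugt2b37, at 108 ± 40.8 FPKM over the wild-type libraries and 75.6 ± 13.9 FPKM over the knockout libraries (SD, n = 5 each), had the lowest difference of all members, -0.43, and -0.26 without wild-type 1. Ugt2b34 and Ugt2b5, at means of 4.21 and 3.04 FPKM, differed by 0.13 and 0.01. For all 4 Ugt2b genes wild-type 2 was the lowest library.

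Ugt3 genes had the widest range between libraries of the 12 families, by their mean centred log2(FPKM + 1). The human enzymes attach sugars other than glucuronic acid. Ugt3a2, on chromosome 15 from 9335550 to 9370955, measured 334, 64.4, 58.5, 80.5 and 157 FPKM in wild-type libraries 1 to 5 and 149, 97.8, 112, 95.3 and 122.7 FPKM in knockout libraries 1 to 5. Wild-type 1 was far above the rest, wild-type 5 came second and wild-type 2 and 3 were the lowest, and the means were 139 ± 116 FPKM over the wild-type libraries and 115 ± 21.7 FPKM over the knockout libraries (SD, n = 5 each), lower in knockout kidneys. The difference in mean log2(FPKM + 1) had the opposite sign, 0.05 (SE 0.408, limma adjusted p = 0.996), and 0.45 without wild-type 1. Ugt3a1, its neighbour, measured 64.3, 11.3, 8.64, 12.5 and 33.8 FPKM in wild-type libraries 1 to 5 and 30.8, 12.8, 16.6, 13.6 and 16.6 FPKM in knockout libraries 1 to 5. It followed the same order at the top, and its difference of -0.17 turned to 0.24 without wild-type 1. The proximal tubule markers also put wild-type 1 highest and wild-type 2 and 3 lowest, at 1.24, -0.59, -0.52, -0.31 and 0.14 in wild-type libraries 1 to 5 and 0.37, 0.04, 0.11, -0.33 and -0.16 in knockout libraries 1 to 5 in mean centred log2(FPKM + 1), and their part in the Ugt3 values was not tested.

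Of 16 glutathione S-transferases 15 had higher values in knockout kidneys, with a median of 0.19, and without wild-type 1 it was 12 of 16. Among alpha class genes, whose enzymes also reduce lipid peroxides, Gsta2 was the most abundant and measured 128, 48.3, 80.6, 86.7 and 92.7 FPKM in wild-type libraries 1 to 5 and 102, 113, 116, 74.9 and 92.3 FPKM in knockout libraries 1 to 5. Wild-type 1 was the highest and wild-type 2 the lowest, and the difference was 0.24 (SE 0.221, limma adjusted p = 0.976). Gsta3 measured 9.88 ± 6.54 FPKM over the wild-type libraries and 12.3 ± 1.56 FPKM over the knockout libraries (SD, n = 5 each). Its difference of 0.46 was 0.76 without wild-type 1 (unadjusted p = 0.00156, limma adjusted p = 0.504). The other 4 wild-type kidneys ran from 4.44 FPKM, in wild-type 2, to 10.2 FPKM and the knockout kidneys from 10.2 to 14.6 FPKM. Gsta4, which detoxifies the lipid peroxidation product 4-hydroxynonenal, behaved differently, with wild-type 1 the lowest library and a difference of 0.08. Gsta1 rested on 2 to 47 reads per library, and 90.5% of its words occur in other genes, so its value is uncertain. The kappa class gene Gstk1, whose enzyme sits in mitochondria and peroxisomes, measured 18.1, 7.89, 9.88, 10.2 and 12.2 FPKM in wild-type libraries 1 to 5 and 16.7, 12.6, 14.4, 11.3 and 12.02 FPKM in knockout libraries 1 to 5, with a difference of 0.22 (limma adjusted p = 0.976).

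The mu class was the most abundant of the Gst groups. Gstm1, on chromosome 3 from 108012255 to 108017973, measured 265, 166, 222, 214 and 226 FPKM in wild-type libraries 1 to 5 and 244, 242, 238.7, 236 and 245 FPKM in knockout libraries 1 to 5. The knockout kidneys lay between 236.3 and 244.8 FPKM, an SD of 3.54 FPKM, while wild-type 2 was well below and wild-type 1 above them. The difference was 0.16 (SE 0.121, limma adjusted p = 0.976). Gstm4 had the second smallest p of all members and measured 7.22, 5.63, 7.30, 7.86 and 6.46 FPKM in wild-type libraries 1 to 5 and 10.1, 9.20, 9.37, 6.53 and 10.52 FPKM in knockout libraries 1 to 5. Knockout 1, 2, 3 and 5 were above all wild-type kidneys and knockout 4 was among them, with a difference of 0.35 (SE 0.124, unadjusted p = 0.0149, limma adjusted p = 0.976). The others, Gstm5, Gstm2, Gstm7 and Gstm6, had means of 73.9, 20.2, 2.94 and 2.89 FPKM and differences of 0.05, 0.04, 0.34 and 0.08.

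Pi and theta class genes completed the group. Gstp1 measured 124, 88.4, 81.5, 112 and 96.5 FPKM in wild-type libraries 1 to 5 and 108, 132, 135, 94.0 and 144 FPKM in knockout libraries 1 to 5. Knockout 2, 3 and 5 were above every wild-type kidney and knockout 1 and 4 within their range. The difference was 0.28 (SE 0.15, limma adjusted p = 0.976), and 0.36 without wild-type 1 (unadjusted p = 0.0283, limma adjusted p = 0.727). Gstp1 shares 33.7% of its words with Gstp2, which fell below the mean of 1 FPKM. Gstp3 was the Gst gene of the set with lower values in knockout kidneys, at -0.24. Among theta class genes, Gstt1 measured 51.5, 43.7, 47.3, 59.6 and 52.5 FPKM in wild-type libraries 1 to 5 and 61.9, 52.8, 60.4, 50.4 and 52.4 FPKM in knockout libraries 1 to 5, the narrowest range of any member, with a highest to lowest ratio of 1.42 and a difference of 0.13 (limma adjusted p = 0.976). Gstt3 measured 5.49, 6.36, 8.32, 6.16 and 5.35 FPKM in wild-type libraries 1 to 5 and 7.27, 7.21, 7.36, 9.72 and 6.77 FPKM in knockout libraries 1 to 5. All knockout kidneys were at or above 6.77 FPKM, as was wild-type 3, and the difference was 0.24 (SE 0.122, unadjusted p = 0.0683, limma adjusted p = 0.976). Gstt2 differed by 0.14 at a mean of 14.8 FPKM.

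Many Gst genes are induced by the oxidant sensor NRF2 through antioxidant response elements. Its letters (TGACNNNGC, or GCNNNGTCA on the other strand) were found in 5 of 49 member windows and in 12.4% of all windows, in Cyp2j6, Cyp4f18, Gsta3, Gstm5 and Gstm7. The match is shown in capitals for the most abundant of these genes and for the alpha class gene, whose ranges differ: the highest to lowest ratio was 1.83 for Gstm5 and 4.715 for Gsta3. Both stretches are on the plus strand (chr3:107895774-107895863 and chr1:21240435-21240524, RefSeq, GRCm38.p6), and the match begins 42 and 121 bases before the start.
Gstm5: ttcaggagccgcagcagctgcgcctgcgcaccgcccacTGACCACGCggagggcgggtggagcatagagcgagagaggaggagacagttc
Gsta3: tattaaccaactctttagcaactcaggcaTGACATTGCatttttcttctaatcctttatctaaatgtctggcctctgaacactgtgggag
Nfe2l2, the gene of NRF2, measured 50.9 ± 4.15 FPKM over the wild-type libraries and 46.4 ± 8.80 FPKM over the knockout libraries (SD, n = 5 each), a difference of -0.14. The direct repeat to which PPAR alpha and HNF4 bind (GGTCANAGG) was in 0 member windows and 1.72% of all. The D-box of clock-controlled factors (TTATGTAA) was in 0 and 0.94%. Cyp4a10, Cyp4a14 and the other Cyp4a members had no promoter window, so their promoters were not searched.

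Sulfotransferases were led by Sult1d1, which sulfates catecholamines and other phenols in mice. It lies on chromosome 5 from 87554645 to 87569027, in the same region of chromosome 5 as the Ugt2b genes. It measured 161, 65.3, 126, 129 and 166 FPKM in wild-type libraries 1 to 5 and 172, 142, 147, 182 and 118 FPKM in knockout libraries 1 to 5. Wild-type 2 was far below the other 9 kidneys, which overlapped between genotypes, and the difference was 0.29 (SE 0.231, limma adjusted p = 0.976). Sult1c2 was likewise lowest in wild-type 2, at 13.2 FPKM where the other libraries lay between 24.3 and 32.55 FPKM. The phenol sulfotransferase gene Sult1a1 differed by 0.34, and by 0.18 without wild-type 1, its lowest library. Sult4a1, a brain member with no firmly known substrate, had a mean of 2.68 FPKM and a difference of -0.07. Of the 21 Sult genes 17 lay below the mean of 1 FPKM, 10 of them with no read in any library.

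Wild-type 1 was the highest library for 42.6% of the members and 19.8% of all genes tested, and the lowest for 18.5% of the members and 17.3% of all genes, so the share that was lowest there was near that of all genes. The 23 genes that were highest there included Cyp2e1, Cyp4a10, Ugt1a7c and Gsta2. The 10 that were lowest were Cyp1b1, Cyp2d22, Cyp2j6, Cyp2j9, Cyp4f16, Cyp4f18, Cyp4v3, Gsta4, Gstm6 and Sult1a1. Wild-type 1 was the lowest library for 7 of 7 measured urothelium markers and 9 of 11 fibroblast markers, and the highest for 24 of 26 proximal tubule markers. Summed urothelium markers were 30.2 FPKM in wild-type 1 and 44.5 to 154.4 FPKM elsewhere. Summed fibroblast markers were 504.8 FPKM in wild-type 1 and 613.1 to 1164 FPKM elsewhere. The part of tissue make-up in the members' values was not tested. Liver is the other organ rich in these enzymes, and its markers were at mixed levels. Alb had at most 1.23 FPKM and Apoa1 at most 0.358 FPKM in any library, while Serpina1a, Apob and Ttr had means of 12.5, 9.95 and 7.56 FPKM. Summed over the 9 of 17 hepatocyte markers that reached the mean of 1 FPKM, the level was 1060 FPKM in wild-type 1, 593.8 FPKM in knockout 5, 387.8 FPKM in wild-type 5 and between 94.4 and 204.6 FPKM in the other 7 libraries. The fibrinogen genes Fga, Fgb and Fgg made up 998.1 FPKM of the sum in wild-type 1 and 564.4 FPKM in knockout 5, and without them the level was 20.8 to 61.9 FPKM over the 10 libraries. The part of these markers in the members' values was not tested.

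**Figure D4:**
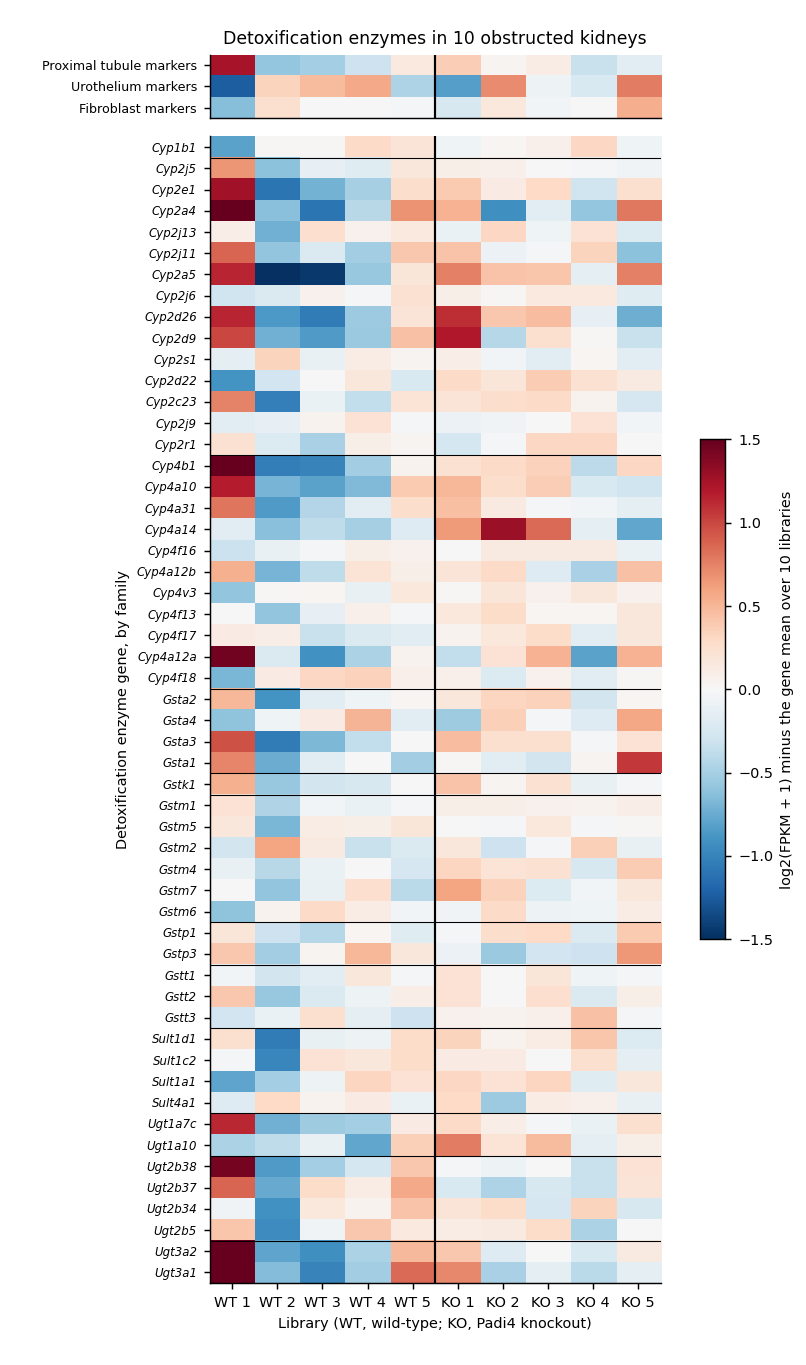
Colour is log2(FPKM + 1) minus the gene's mean over the 10 libraries, for the 54 genes by family, with 3 marker lists on top as the mean over their genes; values beyond the ends of the scale take the end colour. Wild-type 1 is the highest library for 23 genes and for the proximal tubule markers and the lowest for Cyp1b1 and the urothelium markers, and wild-type 2 is the lowest library for 26 genes.

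The remaining genes of the pathway gave 0 calls after adjustment. Of 36 measured other phase I enzymes, 30 had higher values in knockout kidneys, with a median of 0.12. At an unadjusted p under 0.05 were 3 of the 36, against 4.05% of all genes. These were the epoxide hydrolase gene Ephx1 at 0.51 and the carbonyl reductase genes Cbr1 and Cbr3 at 0.43 and 0.46. Ephx1 measured 15.7, 29.1, 30.3, 30.8 and 26.3 FPKM in wild-type libraries 1 to 5 and 36.9, 39.0, 45.5, 36.7 and 29.0 FPKM in knockout libraries 1 to 5. Wild-type 1 was the lowest library, and knockout 5 lay within the wild-type range. Other phase II enzymes had higher values for 15 of 22, with a median of 0.08. At an unadjusted p under 0.05 was 1 of the 22, near the 4.05% of all genes, the dipeptidase gene Dpep1 at 0.33. Genes that supply UDP-glucuronic acid, active sulfate, glutathione and NADPH had 10 of 16 higher and a median of 0.02. Without wild-type 1, these supply genes had 16 of 16 higher and a median of 0.15. In that fit, other phase I enzymes had 30 of 36 higher with 0.24, and other phase II enzymes 19 of 22 with 0.23. Electron donors of P450 had 10 of 13 higher and a median of 0.10, with Por at 0.12. Sensors and other transcription factors, with 11 of 21 higher, had a median of 0.0079, among them the pregnane X receptor gene Nr1i2 at 0.27, Ahr at -0.23 and Hnf4a at 0.17. Nr1i3, the other main xenobiotic receptor of liver, was near 0, at no more than 0.0279 FPKM in any library.

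Cytochrome P450 genes of other families had 4 higher and 4 lower of 8, with a median of 0.0042. Of these 8, 3 were at an unadjusted p under 0.05, against 4.05% of all genes. Higher were Cyp27b1, which activates vitamin D in the proximal tubule, at 0.52 and the sterol hydroxylase gene Cyp27a1 at 0.37. Lower was the retinoic acid hydroxylase gene Cyp26b1 at -0.85. Clock genes, whose outputs set daily rhythms of drug metabolism, had 5 higher and 9 lower of 14, with a median of -0.13. At an unadjusted p under 0.05 were 2 of the 14, Nr1d1 at 0.69 and Cry1 at -0.39, both with a limma adjusted p of 0.976. The groups were apart for Nr1d1, as they were for 0.744% of all genes. The D-box factor gene Dbp differed by 0.02. Tubular injury markers had lower values for 9 of 9, with a median of -0.19 and differences from -0.496 to -0.0047. Of these 9, 0 were at an unadjusted p under 0.05, and without wild-type 1 the median was -0.23 with 1 higher. Proximal tubule markers had 16 of 26 higher, with a median of 0.06. Without wild-type 1, 25 of the 26 proximal tubule markers were higher, with a median of 0.36, where the median of the members was 0.25. Fibroblast markers had 11 of 11 higher with a median of 0.16, urothelium markers 5 of 7 with 0.12, hepatocyte markers 5 of 9 with 0.03, sex-dependent kidney genes 2 of 7 with -0.12 and sex chromosome genes 2 of 4 with -0.04. Without wild-type 1, fibroblast markers had 8 of 11 higher with a median of 0.02, and urothelium markers 1 of 7 with -0.13. Hepatocyte markers then had 6 of 9 with 0.15, sex-dependent kidney genes 5 of 7 with 0.09 and sex chromosome genes 2 of 4 with -0.02. None of these lists held a gene that passed after adjustment.

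The choice at 1 FPKM lay close to several genes. Just inside were Cyp2r1 at 1.02, Gsta1 at 1.03 and Ugt1a10 at 1.596 FPKM, and just outside were Cyp2d12 at 0.929, Cyp3a13 at 0.832 and Gstp2 at 0.798 FPKM. Cyp2r1 and Gsta1 passed through the knockout mean, 1.11 and 1.22 FPKM, with wild-type means of 0.927 and 0.843 FPKM. Both are among the 46 members counted as higher in knockout kidneys, a direction that the choice favoured for them. Cyp2r1 is also among the 12 such Cyp2 genes and Gsta1 among the 15 such glutathione S-transferases. Of the 54 members, 18 share more than 10% of their 50-base words with another gene and 22 share less than 1%. The abundant members Cyp2j5, Cyp2e1 and Sult1d1 share 0.17%, 3.87% and 0% of their words.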

How the data were processed

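RNA of 10 obstructed kidneys was sequenced, per the labels' protocols, and aligned with HISAT2 2.0.5, per the submitters' processing notes. The build, annotation and counter, with its use of strand, were not given in the sources used here. No header names the unit, and the deposited values were taken to be FPKM, because each value times the gene length in the table and a constant per library is a whole number of reads, within 0.01, for 100% of values above 0. Of the 54 members, 50 have the coordinates of GENCODE vM21 (GRCm38).

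Limma 3.58.1 in R 4.3.3 was fitted with a variance trend to log2(FPKM + 1) of 13435 genes (mean of 1 FPKM or more), with genotype as the only term. Differences on this scale understate the change of low genes. P-values were adjusted by Benjamini-Hochberg over all of them. Alternatives were other filters, a pseudocount of 0.1, TMM and upper quartile scaling, limma-voom with recovered reads as input, a replicate block, a threshold of 0.1 and each library left out. Members and lists were chosen with earlier results of these data known. Values in every library are given for the most abundant gene of each family, the 6 genes with the smallest p and the 5 with the widest range among means of at least 10 FPKM. Genes of context lists were named by p or level; Cyp2e1, Cyp2d26, Cyp2d9, Gsta3, Sult1c2, Ephx1 and factor genes beside promoter letters were described further after their values were seen. Shared 50-base words were counted over GENCODE vM21 transcripts, to show where reads could fit several genes. No 2 libraries agreed within sampling noise. A motif searched in the promoter windows is not reported here, so the motifs given are not all that were searched and their shares do not describe the search as a whole.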

Additional observations from a re-analysis of the deposited data

Results flagged for a closer look

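In each group of 5 libraries, a library was looked at again when its gap to the nearest other library took most of the group's range on the log2(FPKM + 1) scale. Of 108 groups, 2 for each of the 54 genes, 10 held such a library, and chance gives about 5.4, or 1 in 20. Genes that vary together are not separate cases. Wild-type 2 was low for 3 genes, with Cyp2j13 at 20.3 FPKM, Gstm5 at 45.0 FPKM and Sult1c2 at 13.2 FPKM. Wild-type 1 was low for 2, with Cyp1b1 at 22.2 FPKM and Cyp4f18 at 2.27 FPKM. Knockout 4 stood apart 3 times, low for Cyp4b1 at 158.8 FPKM and Gstm4 at 6.53 FPKM and high for Gstt3 at 9.72 FPKM. Knockout 5 was high for Gsta1 at 2.96 FPKM, a value of few reads, and knockout 3 was high for Gstm5 at 81.2 FPKM, in a group whose range was narrow.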

How the results depend on the processing

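No member and no gene of the context lists passed under any of the 18 alternatives, 0 in each, the replicate block among them, and the smallest adjusted p of a member over all fits was 0.504. Deviations of same-numbered libraries correlated at 0.306, 0.111, -0.124, -0.344 and -0.04. The closest knockout library had the same number for wild-type 1 and 2 and another number for wild-type 3, 4 and 5. Whether same-numbered libraries were handled together is not known here, and these correlations cannot decide it. Members at an unadjusted p under 0.05 numbered 3 to 6 under other filters, scalings, tests and the block, and 2 (without knockout 1) to 15 (without wild-type 1) when 1 library was left out, with 7 without knockout 4. Of all genes, 4.05% were at that p in the main fit and 6.82% without wild-type 1. That share was not worked out for the other fits, so their counts cannot be set against all genes. The median over the members stayed above 0 in every fit, with 0.067 as its lowest value (wild-type 2 left out) and 0.25 as its highest (wild-type 1 left out). Of 21 genes given in full, 15 kept their direction under these 18. The other 6 turned when single libraries were left out, where the difference ran from -0.0712 to 0.201 for Cyp1b1, -0.433 to 0.298 for Cyp2a4, -0.113 to 0.204 for Cyp2j5, -0.306 to 0.266 for Ugt2b38, -0.447 to 0.243 for Ugt3a1 and -0.177 to 0.447 for Ugt3a2; 4 of them turned without wild-type 1. In an alternative chosen after seeing the data, the log2 ratio of mean FPKM in place of the difference in mean log2(FPKM + 1), 40 members were higher in knockout kidneys, and 3 of the 21 genes turned, Cyp2j5 at -0.0257, Cyp4b1 at -0.0864 and Ugt3a2 at -0.27. No alternative used the recovered reads alone as the library total, and the totals implied by the deposited values differ from those reads. TMM and upper quartile scaling moved the median of all genes by 0.000687 and -0.0107 and turned no direction among the 21. The cause was not tested. Genes with few reads, such as Gsta1 at 2 to 47 reads, are limited by depth.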

Other observations

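Steroid-making P450 genes of the adrenal gland, which lies on the kidney, were close to 0 in 9 kidneys and present in knockout 5. Cyp21a1 measured 3.32 FPKM there and at most 0.138 FPKM in any other library. Cyp11b1 measured 2.04 FPKM in knockout 5 and at most 0.0805 FPKM elsewhere, and Cyp11a1 1.23 FPKM and at most 0.0382 FPKM. Over all 10 libraries none of the 3 reached a mean of 1 FPKM. In the fit without knockout 5, the median difference of the 54 members was 0.17 and 43 had higher values in knockout kidneys. Cyp4a14 was lowest and Gsta1 highest in knockout 5, and the part of adrenal tissue in these values was not tested.

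Aox3, which encodes an aldehyde oxidase of phase I, measured 2.11 FPKM in wild-type 2 and 0.71 FPKM or less in the other 9 kidneys, with a mean below 1 FPKM. Wild-type 2 was also the lowest library for 26 members.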
